A study of Mus musculus with 4 samples.

Results

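The DNA replication machinery was followed through 44 genes in mouse erythrocyte/megakaryocyte progenitors, cells that go on to form red cells or the megakaryocytes that shed platelets. A gene was taken when an array probe carried its symbol, or an older symbol of the same gene, and passed the scanner's flag for signal well above background on 1 array or more. All 44 listed genes met this rule, out of 31703 gene names on the array, of which 17663 passed the same flag. RNA came from fetal liver at E14.5 or from the bone marrow of adults, from wild-type mice or mice null for Ezh2, the methyltransferase that places the repressive mark on lysine 27 of histone H3. All 4 groups were on the C57BL/6 background, and each was hybridised to 1 array. The labels leave out how the cells were purified, the number and sex of the animals, whether animals were pooled, and how and where Ezh2 was deleted. Since no group has a second sample, a difference between 2 arrays has no replicate check and is given by its size alone.

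A eukaryotic origin is bound by the origin recognition complex (ORC), onto which CDC6 and CDT1 load the ring-shaped MCM helicase before S phase. CDC45 and the GINS complex then switch the helicase on, primase and DNA polymerase alpha begin each strand, the clamp PCNA and its loader RFC tether polymerases delta and epsilon, RPA covers single strands, and FEN1 and LIG1 join Okazaki fragments. Many of these genes are transcribed as cells enter S phase and many are targets of E2F factors, so their transcripts are commonly read as a sign of dividing cells. Erythroid progenitors divide several times while they mature.

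Levels are spot intensities scaled so that the 75th percentile of the probes detected on all arrays was equal, and a level is compared only with the same probe on another array. Values on the 4 arrays always follow the order wild-type fetal liver, Ezh2-null fetal liver, wild-type bone marrow, Ezh2-null bone marrow. Between 39.0% and 46.4% of 39418 probes were well above background per array, the highest share being that of Ezh2-null fetal liver. The bone marrow arrays correlated at 0.982 over the probes detected on all arrays, and the other pairs at 0.915 to 0.937. Between printed copies of a probe on 1 array, the median SD was 0.0751 to 0.143 on the log2 scale, which covers error within an array only. The Ezh2 probe read 33.5, 194.3, 35.4 and 70.03. It was brighter on the arrays labelled Ezh2-null, and the deleted part of the gene is not given, so this probe does not check the labels and every genotype direction rests on them.

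Promoter sequence was at hand for 36 of the 44 genes in a RefSeq table of build GRCm38.p6. E2F factors bind variants of a short element, and the spellings TTTCCCGC, TTTCGCGC, TTTGGCGC and TTTGCCGC were searched on both strands in the 250 bases before and 50 after each annotated start, with overlapping matches counted. At least 1 match lay in a promoter of 14 of the 36 genes (38.9%), against 704 of 27025 genes in the whole table (2.61%). Related lists described further on gave 37.5% of 16 S-phase regulators, 31.0% of 29 fork and chromatin assembly factors, 5.88% of 17 mitotic genes and 0 of 12 nucleotide supply genes. These 14 were Orc1, Orc3, Cdc6, Cdt1, Mcm3, Mcm5, Mcm6, Mcm7, Gins3, Rfc3, Pola1, Pold1, Pole2 and Lig1. The stretch from 150 bases before the start to 30 after it is printed below 5′ to 3′ for 4 genes that hold matches, marked by capitals, and for Pcna, which was 11.3-fold higher in bone marrow in null cells and whose window holds none. The windows of Orc1 (plus strand, chr4:108579304-108579483), Orc3 (minus strand, chr4:34614913-34615092), Mcm6 (minus strand, chr1:128359676-128359855), Rfc3 (minus strand, chr5:151651179-151651358) and Pcna (minus strand, chr2:132253151-132253330) read as follows.
Orc1: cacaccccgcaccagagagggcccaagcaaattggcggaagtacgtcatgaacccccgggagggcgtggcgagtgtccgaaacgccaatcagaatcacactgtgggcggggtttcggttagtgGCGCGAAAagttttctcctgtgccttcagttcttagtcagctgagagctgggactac
Orc3: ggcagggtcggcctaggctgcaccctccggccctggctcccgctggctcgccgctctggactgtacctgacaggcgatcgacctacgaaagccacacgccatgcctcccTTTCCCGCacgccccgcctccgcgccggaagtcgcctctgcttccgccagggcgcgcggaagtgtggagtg
Mcm6: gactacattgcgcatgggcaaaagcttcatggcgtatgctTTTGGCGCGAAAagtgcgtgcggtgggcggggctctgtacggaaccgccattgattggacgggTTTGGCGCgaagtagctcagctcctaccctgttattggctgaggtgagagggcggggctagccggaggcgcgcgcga
Rfc3: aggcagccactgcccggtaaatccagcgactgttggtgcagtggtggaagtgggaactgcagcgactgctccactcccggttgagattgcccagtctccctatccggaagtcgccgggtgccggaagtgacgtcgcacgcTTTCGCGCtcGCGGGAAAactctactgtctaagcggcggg
Pcna: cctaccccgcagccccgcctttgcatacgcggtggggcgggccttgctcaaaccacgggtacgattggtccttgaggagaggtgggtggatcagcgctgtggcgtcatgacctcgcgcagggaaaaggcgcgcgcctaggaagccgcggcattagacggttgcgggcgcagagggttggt
Mcm6 held 3 matches, of which a pair overlap in the first run of capitals, Rfc3 held 2 that start 10 bases apart, and Orc1 and Orc3 held 1 each. A match describes the letters in this window and is no measure of E2F binding.

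Of the 44 genes, 37 were well above background on all 4 arrays, Pole on 3, Orc3 and Orc5 on 2, and Tyms, Orc2, Orc4 and Pola1 on 1. Among the 37, the highest level lay on the Ezh2-null bone marrow array for 16 genes, on wild-type bone marrow for 11, on Ezh2-null fetal liver for 7 and on wild-type fetal liver for 3. The lowest level lay on Ezh2-null fetal liver for 19 of them. A gene was called when it was at least 2-fold apart between 2 arrays. A gene dim on 1 of the 2 arrays is given as a bound (at least N-fold), and a gene dim on both was left out. In this sense 32 genes were called in 1 comparison or more and 12 in none. Neither this count nor those of highest and lowest arrays were made over all genes, so they cannot be read as particular to replication genes. Each level is that of a whole RNA sample, in which fewer cells of a type and less RNA per cell cannot be told apart.

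**Figure D1:**
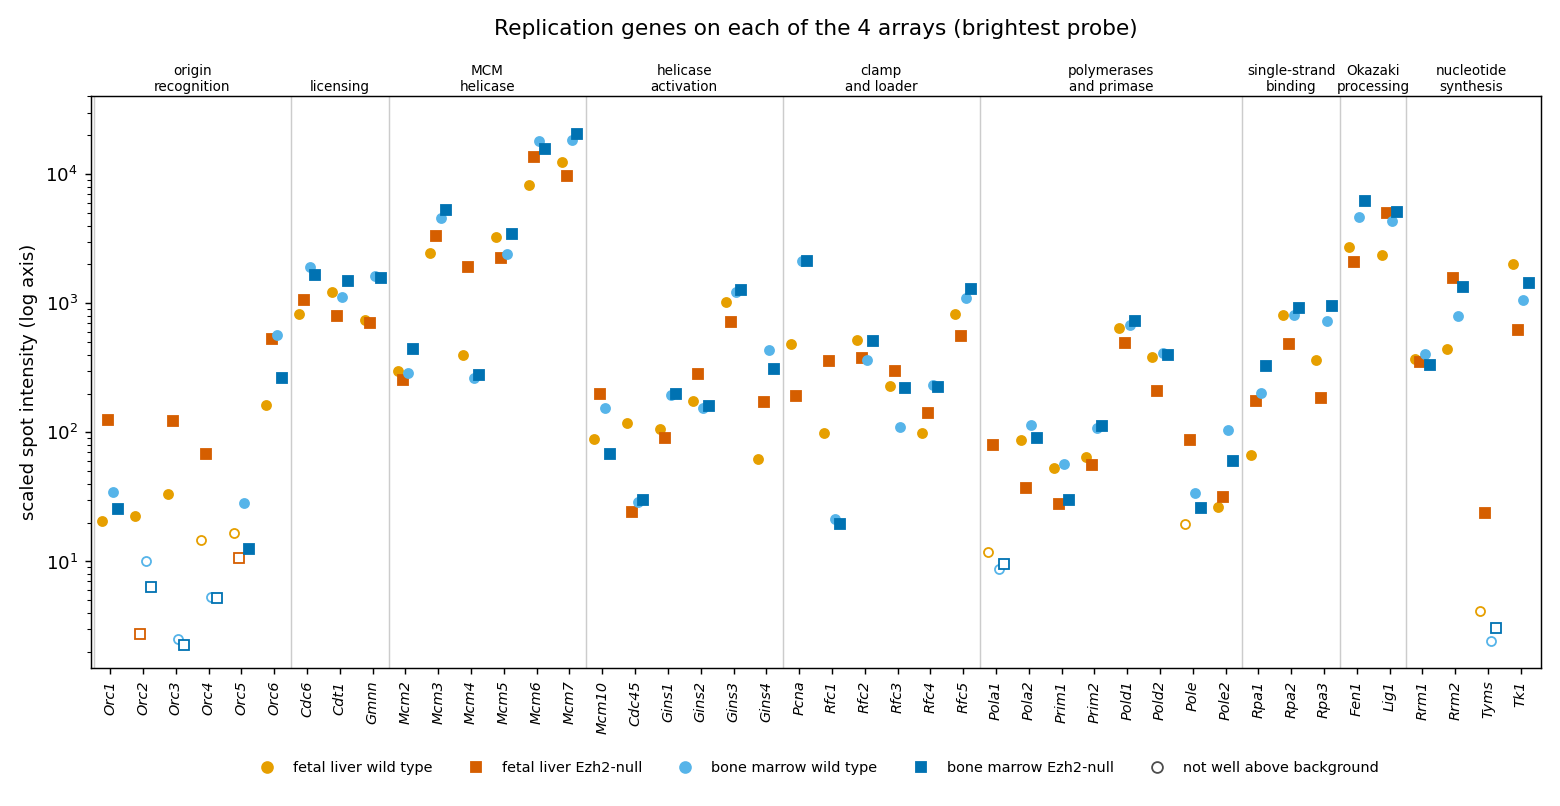
Scaled spot intensity (log axis) of the brightest probe of each of the 44 replication genes on the 4 arrays, grouped by role; open symbols were not well above background. Orc1, Orc3, Orc4, Mcm4, Rfc1 and Pola1 are highest on the Ezh2-null fetal liver array, and Pcna is lowest there; levels of different genes are not comparable.

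Between the genotypes in fetal liver, 13 of 43 genes compared were higher on the Ezh2-null array and 4 were lower, that is 30.2% and 9.30%. Over all 16252 genes compared the shares were 15.4% higher and 13.3% lower. The members' median difference was −0.06 on the log2 scale and that of all genes −0.14, and 26 of the 43 members were under 2-fold. Higher were 4 ORC subunits, Mcm4, Mcm10, Gins4, Rfc1, the catalytic subunits of polymerases alpha and epsilon, Rpa1, Lig1 and Rrm2; lower were Cdc45, Pcna, Pola2 and Tk1. Of the members with promoter sequence, 4 of the 10 higher ones held an E2F spelling (Orc1, Orc3, Pola1 and Lig1), as did 0 of the 4 lower ones and 10 of the 21 under 2-fold. Of the 13, Pole, Pola1 and Orc4 are bounds; among the 37 members detected on all 4 arrays 9 were higher and 4 lower, beside 12.6% and 14.1% of all such genes. The split was 15 higher and 2 lower with spike-in scaling, under which 23.5% of all genes were higher and 4.94% lower. It was 11 and 7 with the percentile taken over all probes (13.3% and 18.6% of all genes), 14 and 7 with quantile normalization (15.7% and 14.1%), and 5 and 3 with normexp background correction (4.89% and 6.54%). In bone marrow 1 of 39 genes was higher on the Ezh2-null array and 3 were lower (2.56% and 7.69%), against 4.54% and 7.64% of 15275 genes, shares near the background. The members' median there was 0.05 and that of all genes −0.03. The split in bone marrow became 1 and 2 with the percentile over all probes (5.50% and 6.41% of all genes) and 0 and 2 with quantile normalization (4.85% and 5.73%).

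Between the sources in wild-type cells, 10 of 41 genes were higher in bone marrow and 5 lower (24.4% and 12.2%), against 13.1% higher and 31.8% lower among 15379 genes. In Ezh2-null cells 10 of 43 were higher and 9 lower (23.3% and 20.9%), against 10.4% and 26.9% of 16684 genes. Of the lower members, 2 in wild type (Orc2 and Orc3) and 4 in null (Orc3, Orc4, Pola1 and Tyms) are bounds. Orc2, Orc4, Pola1 and Tyms were each detected on 1 fetal liver array only, so they could not come out higher in bone marrow. Among the 37 members detected on all 4 arrays, 10 were higher and 3 lower in wild type, beside 12.6% and 30.7% of such genes. In null cells 10 were higher and 4 lower, beside 10.9% and 21.9%. Replication genes thus lay above the general run of genes in bone marrow: their median difference was 0.56 in wild type and 0.62 in null, where all genes had medians of −0.58 and −0.51. The level of all genes moves with the scaling, to 0.71 in wild type and 0.37 in null when the arrays are centred on spike-in RNA. Relative to the median of all genes, 21 of 41 members were at least 2-fold higher in wild-type bone marrow and 3 lower, beside 22.3% and 8.73% of all genes; in null cells the counts were 23 and 8 of 43, beside 19.6% and 14.2%. Without that centring the splits in wild type were 32 and 0 with spike-in scaling (39.7% and 2.20% of all genes), 19 and 3 with the percentile over all probes (18.5% and 15.1%) and 16 and 4 with quantile normalization (17.3% and 16.1%). Those in null were 27 and 6 (30.5% and 10.1%), 24 and 7 (22.6% and 12.6%), and 14 and 8 (16.2% and 14.9%) in the same order. Each source comparison shares its arrays with the genotype comparisons, so the same signal enters both.

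Orc1, Orc3 and Orc6, the 3 ORC subunits well above background on both fetal liver arrays, were each higher on the Ezh2-null one. Orc1, the subunit that joins the complex in a cell-cycle-dependent way (probe at chr4:108284772-108285679 of build mm9), read 20.5, 125.8, 34.4 and 25.3. The Ezh2-null fetal liver array alone stood high, 6.14-fold above wild type, whereas bone marrow null was 1.36-fold below wild type. The brightest Orc3 probe read 33.5 and 121.8 in fetal liver and was not well above background on either bone marrow array. By this probe Orc3 was 3.64-fold higher in Ezh2-null than in wild-type fetal liver, and fetal liver exceeded bone marrow by at least 3.01-fold in wild type and at least 12.2-fold in null. Orc4 was detected on the Ezh2-null fetal liver array only, at 68.2, which was at least 3.54-fold above wild-type fetal liver and at least 6.83-fold above Ezh2-null bone marrow; with both its probes averaged the first difference was 0.35 on the log2 scale. Orc2 was instead detected in wild-type fetal liver only, at 22.6, at least 1.74-fold above the Ezh2-null array and at least 2.03-fold above wild-type bone marrow.

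The smallest ORC subunit, Orc6, differed in opposite directions in the sources. Its probe lies at chr8:87831769-87831828 (mm9) and read 162, 524.9, 564.3 and 265.3, so that Ezh2-null was 3.24-fold higher in fetal liver and 2.13-fold lower in bone marrow. In wild type, bone marrow was 3.48-fold above fetal liver, and in null it was 1.98-fold below. Orc5 was detected in bone marrow only, at 28.4 in wild type and 12.5 in null, a 2.27-fold difference. No ORC subunit was higher on the Ezh2-null bone marrow array than on the wild-type one among the 3 compared there. A second Orc3 probe was above background on the Ezh2-null fetal liver (40.9) and wild-type bone marrow (12.8) arrays but not in wild-type fetal liver (7.30), so between the sources in wild type its readings ran opposite to the brightest probe (0.81 on the log2 scale, bone marrow higher), though 12.8 is under the lowest detected signal of that fetal liver array (19.3). A second Orc4 probe was above background on no array.

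The licensing factors were under 2-fold between the genotypes, and Cdc6 and Gmnn were called between the sources. Cdc6, the ATPase that recruits the helicase to ORC, read 827.8, 1055, 1904 and 1663, with bone marrow 2.30-fold above fetal liver in wild type and 1.58-fold in null. Gmnn, the geminin that holds CDT1 in check, read 740.8, 709.2, 1631 and 1576. Both bone marrow arrays lay above both fetal liver arrays, 2.20-fold in wild type and 2.22-fold in null, and the genotypes were 1.04-fold apart in fetal liver. Cdt1 stayed under 2-fold in each comparison, with levels from 804.4 to 1495.

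Of the 6 MCM subunits, which form 1 ring together, only Mcm4 was called between genotypes in fetal liver. Mcm4 (probe at chr16:15624372-15624431, mm9) read 399.6, 1922, 262.2 and 280.7. The Ezh2-null fetal liver array stood alone, 4.81-fold above wild-type fetal liver and 6.85-fold above Ezh2-null bone marrow, while the bone marrow arrays were 1.07-fold apart. Its partners did not share this pattern: between the genotypes in fetal liver Mcm2, Mcm3, Mcm5, Mcm6 and Mcm7 differed by −0.23, 0.45, −0.52, 0.72 and −0.35 on the log2 scale. Mcm6 read 8260, 13590, 17930 and 15610, lowest in wild-type fetal liver and 2.17-fold higher in wild-type bone marrow. Mcm7 read 12340, 9694, 18480 and 20400 and was 2.10-fold higher in bone marrow in null cells. Mcm2, Mcm3 and Mcm5 were under 2-fold in every comparison by their brightest probes. The Mcm3 probes gave fetal liver genotype differences of 0.45 and 0.44, and between the sources in wild type 0.90 and 1.03, on either side of 2-fold.

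Among the factors that activate the helicase, Cdc45 and Gins4 went opposite ways in fetal liver although both proteins sit in the same active complex. Cdc45 (probe at chr16:18807449-18807508, mm9) read 118.1, 24.2, 28.9 and 29.8, so that wild-type fetal liver stood alone, 4.88-fold above Ezh2-null fetal liver and 4.09-fold above wild-type bone marrow. Gins4 read 62.5, 173, 431.3 and 307.5, lowest in wild-type fetal liver, 2.77-fold higher with Ezh2-null there, and in wild-type bone marrow 6.90-fold above wild-type fetal liver. Gins1 read 105.4, 90.1, 195.2 and 199.1, with bone marrow 1.85-fold above fetal liver in wild type and 2.21-fold in null. Bone marrow was the higher source for Gins1 and Gins4 in both genotypes. Gins2 and Gins3, the other GINS subunits, were under 2-fold throughout. Mcm10, which helps start unwinding, read 88.9, 198.6, 154.5 and 68.4 and, like Orc6, was higher in Ezh2-null fetal liver (2.23-fold) and lower in Ezh2-null bone marrow (2.26-fold).

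In null cells the clamp and its loader held the widest source differences among the 44 genes, upwards in Pcna and downwards in Rfc1. Pcna (probe at chr2:132075022-132075054, mm9) read 488.1, 190, 2125 and 2143, with bone marrow 4.35-fold above fetal liver in wild type and 11.3-fold in null, and with Ezh2-null fetal liver 2.57-fold below wild type. The bone marrow arrays were 1.01-fold apart. The Pcna probe is also annotated to predicted transcripts, whose share of the signal is unknown. Rfc1, the large subunit of the loader (probe at chr5:65653207-65653266, mm9), read 99.1, 354.5, 21.4 and 19.6 and ran the other way: fetal liver exceeded bone marrow 4.63-fold in wild type and 18.1-fold in null, and Ezh2-null fetal liver was 3.58-fold above wild type. The small subunits differed less than Rfc1 between the sources, and among them only Rfc3 was lower in bone marrow in both genotypes. Rfc3 read 229.5, 299.7, 109.2 and 220.9, low in wild-type bone marrow alone, which was 2.02-fold below Ezh2-null bone marrow and 2.10-fold below wild-type fetal liver; with spike-in scaling the source difference turned to 0.25 on the log2 scale. Rfc4 read 98.2, 140.2, 232.2 and 225.4 and was 2.37-fold higher in wild-type bone marrow, and its second probe gave −0.65 against 0.51 for the fetal liver genotype difference. Rfc5 read 830.9, 557, 1097 and 1285 and was 2.31-fold higher in bone marrow in null cells. Rfc2 was under 2-fold in each comparison.

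The subunits of DNA polymerase alpha-primase split in fetal liver. Pola1, the catalytic subunit, was above background in Ezh2-null fetal liver only, at 79.4, at least 4.11-fold above wild-type fetal liver and at least 7.95-fold above Ezh2-null bone marrow. Pola2, its accessory subunit, read 87.0, 36.9, 114.1 and 89.7, lowest on that same array, 2.36-fold below wild type and 2.43-fold below Ezh2-null bone marrow. Prim2, the large primase subunit, read 64.3, 56.01, 108 and 112.5 and was 2.01-fold higher in bone marrow in null cells. Prim1, the small one, read 53.3, 28.0, 56.9 and 30.0: it was 1.90-fold lower with Ezh2-null in fetal liver and by 1.90-fold again in bone marrow, both just under the threshold. Pole, the catalytic subunit of polymerase epsilon, read 87.8 in Ezh2-null fetal liver, at least 4.47-fold above wild-type fetal liver, where it was dim, and 3.37-fold above Ezh2-null bone marrow. A second Pole probe was above background in Ezh2-null bone marrow only. Pole2, its partner, read 26.4, 31.7, 104.7 and 60.0 and was 3.96-fold higher in wild-type bone marrow than in wild-type fetal liver. Pold1 and Pold2 of polymerase delta were under 2-fold throughout.

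RPA, the trimer that covers single-stranded DNA, was not uniform either. Rpa1 read 66.3, 174.1, 202.3 and 324.5, lowest in wild-type fetal liver, with Ezh2-null 2.63-fold higher there and wild-type bone marrow 3.05-fold higher. Rpa3 read 361.2, 183.6, 724.3 and 958.3, so bone marrow exceeded fetal liver 2.01-fold in wild type and 5.22-fold in null, and Ezh2-null fetal liver was 1.97-fold below wild type. Rpa2 was under 2-fold in each comparison. Fen1, the flap nuclease of Okazaki fragments, read 2748, 2090, 4627 and 6151 and was 2.94-fold higher in bone marrow in null cells. Lig1, the ligase, read 2359, 4973, 4364 and 5134, with wild-type fetal liver alone low and 2.11-fold below Ezh2-null fetal liver.

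In nucleotide synthesis Rrm2 and Tk1 went opposite ways in fetal liver. Rrm2, the S-phase subunit of ribonucleotide reductase, read 444.7, 1561, 800.8 and 1344 and was higher with Ezh2-null in both sources, 3.51-fold in fetal liver and 1.68-fold in bone marrow. Tk1, the thymidine salvage kinase, read 2008, 626.5, 1060 and 1432, 3.21-fold lower with Ezh2-null in fetal liver, while in bone marrow null was 1.35-fold above wild type. Its source difference was called in null cells, 2.29-fold higher in bone marrow. Tyms, which makes thymidylate, was detected in Ezh2-null fetal liver only, at 23.6, at least 2.36-fold above Ezh2-null bone marrow and at least 1.22-fold above wild-type fetal liver. Rrm1, the partner of Rrm2, was under 2-fold throughout with levels from 332.3 to 403.6.

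**Figure D2:**
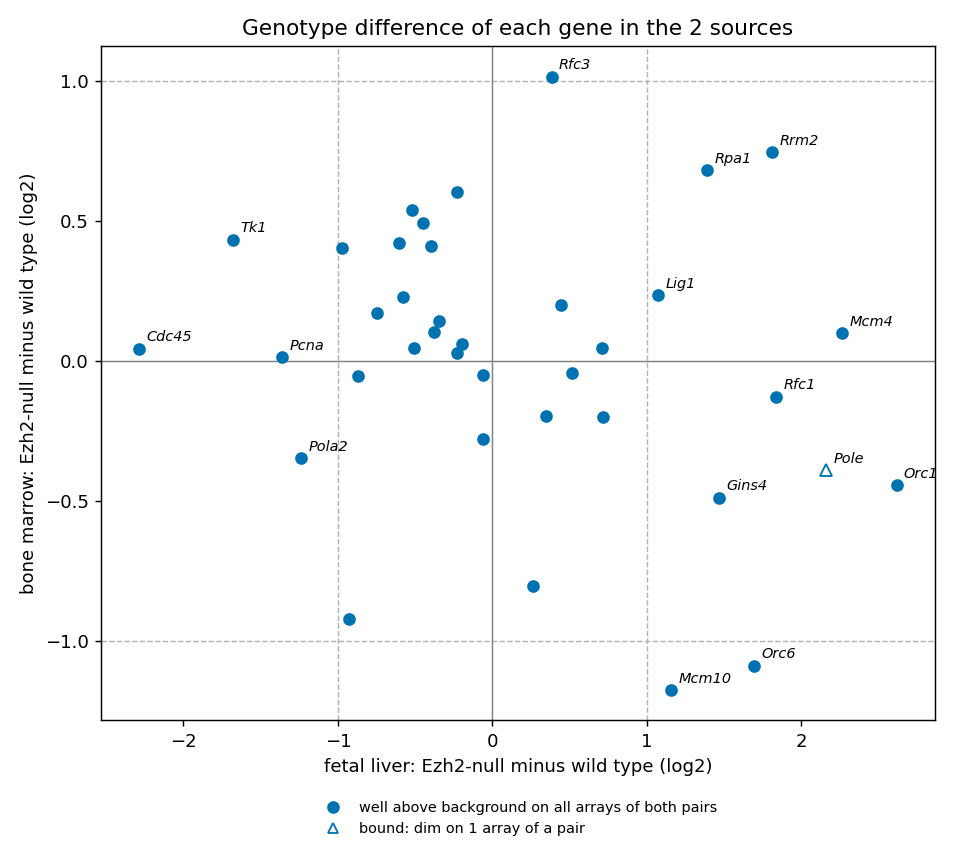
Log2 difference between Ezh2-null and wild type in fetal liver (x axis) and bone marrow (y axis) for the 38 genes compared in both; dashed lines mark 2-fold. Points spread along the fetal liver axis, and Mcm10 and Orc6 lie beyond 2-fold with opposite signs; 1 array per group.

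The fetal liver and bone marrow genotype comparisons share no array. Of 38 genes compared in both, 12 had the same sign in both sources, and 2 were called in both, Mcm10 and Orc6, each in opposite directions. Another 12 were called in fetal liver only and Rfc3 in bone marrow only. Over all genes, calls were also more frequent in fetal liver (15.4% higher and 13.3% lower) than in bone marrow (4.54% and 7.64%). Signs and shared calls were not counted over all genes, so they cannot be read as particular to replication genes. Without replicates the difference between sources was not tested. The bone marrow calls were small, between −1.18 and 1.02 on the log2 scale, and none of the 4 kept 2-fold under every alternative processing. In fetal liver the calls of Cdc45, Mcm4, Orc6, Rfc1, Rrm2 and Tk1 kept 2-fold under every alternative. The calls of Gins4, Mcm10, Orc1, Orc3, Orc4, Pola1, Pola2, Pole and Rpa1 fell below it with normexp background correction, whose offset of 50 shrinks differences at low signal, and Orc1 then differed by 0.71. Lig1 and Mcm10 fell below it with the percentile over all probes (0.91 and 0.99) and with the probe position trend removed, Pcna and Pola2 with spike-in scaling (−0.90 and −0.78), and Orc4 and Pole with probes averaged.

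The position of a probe in its transcript moved with the fetal liver difference. Among members whose probe began beyond base 1800 of the transcript, 10 of 21 were higher with Ezh2-null and 0 lower, with a median of 0.72. Among those with a probe that began at base 1800 or before, 3 of 22 were higher and 4 lower, with a median of −0.48. Positions count bases from the transcript start and were not scaled to its length, so position and transcript length cannot be told apart. All genes moved in the same direction by a smaller step, with a median of 0.09 beyond base 1800 and −0.32 for the others. Of all genes with a probe beyond base 1800, 24.7% were higher and 8.15% lower, against 9.66% and 16.4% of the others. The rank correlation of difference with position was 0.41 over the 43 members and 0.29 over 15645 genes in fetal liver, and −0.02 and −0.06 in bone marrow, as a description over genes of the same arrays. Orc4 (probe at base 303), Gins4 (934) and Orc6 (1244) were the higher members with probes that began before base 1800. With the trend over all genes removed, 11 members were higher and 5 lower, beside 12.5% and 15.6% of all genes, and Lig1 (0.68) and Mcm10 (0.70) fell under 2-fold. Whether a probe lies in coding or untranslated sequence was not analysed here. The part of probe position in the fetal liver result was not tested beyond this.

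**Figure D3:**
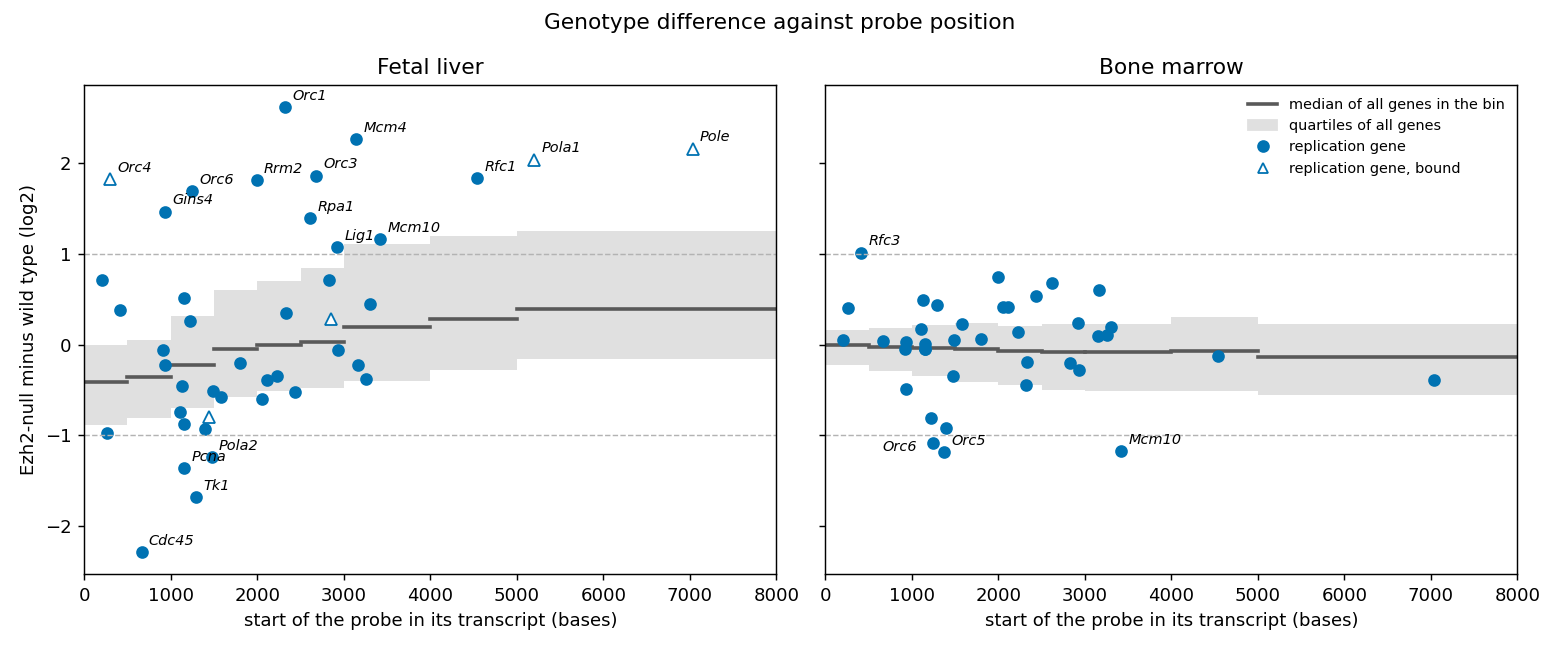
Log2 difference between Ezh2-null and wild type against the start of the probe in its transcript, for fetal liver (left) and bone marrow (right); points are replication genes, grey lines and bands the median and quartiles of all genes in each bin. In fetal liver the grey medians climb from −0.41 in the first 500 bases to 0.39 beyond base 5000, and 10 of the 13 higher members have probes beyond base 1800.

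**Figure D4:**
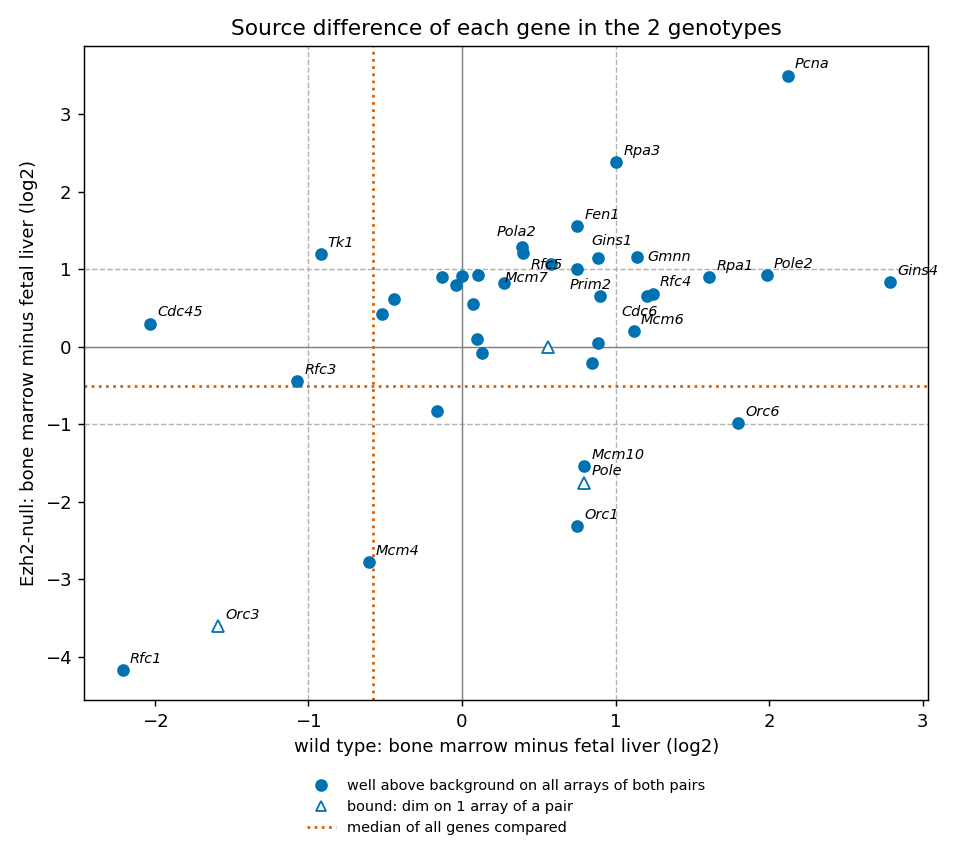
Log2 difference between bone marrow and fetal liver in wild type (x axis) and Ezh2-null cells (y axis) for the 40 genes compared in both; dashed lines mark 2-fold and dotted lines the median of all genes (−0.58 and −0.51). Pcna, Rpa3 and Gmnn lie beyond 2-fold on the bone marrow side in both genotypes, Rfc1 and Orc3 on the fetal liver side.

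The wild-type and null source comparisons share no array either. Of 40 genes compared in both, 26 had the same sign, 3 were at least 2-fold higher in bone marrow in both (Pcna, Rpa3 and Gmnn) and 2 at least 2-fold lower in both (Rfc1, and Orc3 by its brightest probe). Here too no such count was made over all genes. In wild type the calls of Gins4, Orc6 and Pcna kept 2-fold under every alternative processing. In null those of Pcna, Rpa3, Fen1, Rfc5, Mcm7, Rfc1, Orc1, Orc3, Orc4, Pola1 and Mcm4 did. Gmnn fell to 0.99 in wild type and 0.93 in null with the probe position trend removed. Orc1 and Mcm10 lay on opposite sides in the genotypes: Orc1 was 1.68-fold higher in bone marrow in wild type and 4.97-fold lower in null, and Mcm10 was 1.74-fold higher and 2.90-fold lower.

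An additive limma fit of source and genotype over the 4 arrays, which has 1 residual degree of freedom, called none of the 44 members for either term after Benjamini-Hochberg adjustment over 16249 genes, and called 0 (0%) of all genes for either. At an unadjusted p under 0.05 the fit held 10 members for source, 7 higher in bone marrow and 3 lower, beside 16.4% of all genes, and 1 member for genotype, beside 1.71%. Pcna was 2.81 ± 0.51 (SE) higher in bone marrow on the log2 scale, with the 2 arrays of each source agreeing in direction, and Rfc1 −3.19 ± 0.59 (limma, adjusted p = 0.194 for each). Rrm2 had the lowest genotype p among the members, at 1.28 ± 0.47 with Ezh2-null higher in both sources (limma, adjusted p = 0.996). For source, 7 members passed the adjusted threshold with normexp (7.66% of all genes), 5 with the percentile over all probes (5.84%), 4 without a background filter (4.41%) and 2 among genes detected on all arrays (1.24%). For genotype no member did in any setting. The residual of this fit is the change of the genotype difference between the sources. Members that differed in opposite directions in the sources, such as Orc6 and Mcm10, thus raised their own error.

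Other genes of the replication programme were read from 4 further lists. Over all genes compared in fetal liver, 15.4% were higher with Ezh2-null and 13.3% lower, the shares beside which each list is read. Of 34 fork and chromatin assembly factors, 11 of the 32 compared in fetal liver were higher with Ezh2-null and 2 lower, with a median of 0.56 beside −0.14 for all genes. Topoisomerase gene Top1 was 8.11-fold, the MCM-binding protein gene Mcmbp 4.80-fold and the histone chaperone gene Nasp 4.77-fold higher, and Rnaseh2c of ribonuclease H2 was 2.87-fold lower. Of 18 S-phase regulators 7 were higher and 2 lower, with a median of 0.42: Ccnd2 (cyclin D2) was 5.97-fold, the phosphatase gene Cdc25a 5.85-fold and the E2F partner Tfdp1 3.40-fold higher, and E2f3 was 3.01-fold lower. Among 13 nucleotide supply genes 2 were higher and 1 lower, the dNTP hydrolase gene Samhd1 by 5.15-fold and Dtymk lower by 2.01-fold, and the median was −0.36. Among 19 mitotic genes 5 were higher and 1 lower, with a median of 0.13. Mki67 was 8.44-fold, Tpx2 4.67-fold and Cenpe 4.13-fold higher, and Cenpa was 2.97-fold lower. Among the genes counted as higher in these lists, Topbp1, Ticrr, Skp2 and Kif11 are bounds, dim in wild-type fetal liver.

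In bone marrow the same lists held few genotype calls: 0 higher and 2 lower of 31 fork and assembly factors, 3 and 1 of 19 regulators, 0 and 0 of 13 nucleotide genes, and 1 and 1 of 17 mitotic genes. Calls were few over all genes too, with 4.54% higher and 7.64% lower. E2f2, an E2F member prominent in erythroid cells, was 3.01-fold higher in Ezh2-null bone marrow, read at 136.1 and 409.1. Between the sources, Timeless, a fork protection factor, read 146.4, 282.3, 1958 and 1905 and was 13.4-fold higher in wild-type bone marrow and 6.75-fold in null. Top1 was at least 3.32-fold lower in bone marrow in wild type and 16.8-fold lower in null. Of the fork and assembly factors 8 of 30 were higher and 5 lower in wild-type bone marrow, and 4 of 33 higher and 14 lower in null. Among these, Dscc1 and Mcm9 (higher) and Top1 (lower) are bounds in wild type, and Ticrr, Clspn, Mcm8 and Hells (lower) in null. Clspn, Mcm8 and Hells were detected on Ezh2-null fetal liver only, so they could not come out higher in bone marrow. Over all genes 13.1% were higher and 31.8% lower in wild type, and 10.4% and 26.9% in null.

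Markers of the labelled cell type were present, though not all on every array. Of 11 identity genes, 9, 11, 10 and 10 were well above background on the arrays in order, and their summed level ranged from 12370 to 17830. Gata1, Klf1 and Tal1 were detected on every array. Itga2b was detected on Ezh2-null fetal liver only, and Gata2 on all arrays but wild-type fetal liver. Beside the fetal liver genotype result, 3 of 4 late erythroid genes detected were lower with Ezh2-null, and their summed level was 42280 and 8651. Among the identity genes, the progenitor receptor gene Kit was 3.78-fold and Gata2 at least 2.62-fold higher there. The receptor gene Epor was 2.34-fold lower, and the median of the identity list was 0.05 on the log2 scale. Hepatocyte genes summed to 701.9 and 171.7 in fetal liver and to 87.0 and 107.8 in bone marrow. Apoa2 and Serpina1a were above background on every array, and Alb, Afp, Ttr and Fgb on none. Of the 5 hepatocyte genes compared in fetal liver, 4 were lower with Ezh2-null, beside 13.3% of all genes, with Apoa2 5.27-fold and Apoa1 2.73-fold lower. Beside the bone marrow genotype result, 7 of 7 lymphoid genes detected were higher with Ezh2-null, summing to 139.3 and 3972, and 3 of 4 late erythroid genes were higher, summing to 3834 and 9986. Between the sources in wild type, 4 of 4 late erythroid and 5 of 5 hepatocyte genes compared were lower in bone marrow, against 31.8% of all genes. Hba-a1 was 75.8-fold and Slc4a1 11.7-fold lower. Of 10 identity genes 3 were higher, Lmo2 by 4.73-fold, and 2 lower, Klf1 by 2.50-fold. In null cells 1 of 4 late erythroid genes was higher and 1 lower, 3 of 4 hepatocyte genes were lower, and 5 of 7 lymphoid genes were higher. Granulocyte and macrophage genes summed to 54030 or more on every array, mostly through the Itgam probe. Csf1r, Mpo and Adgre1 were also above background on every array, Prtn3 on all but Ezh2-null bone marrow, and Cebpe on Ezh2-null fetal liver only. Elane, Ctsg, Ly6g and Lyz2 were above background on none. The part of these cell types in the replication gene differences was not tested.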

How the data were processed

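RNA of 4 samples (250 ng each, 1 array per group) was hybridised to one-colour Agilent arrays. Per the file headers, the authors' intensity values were made by Agilent Feature Extraction 10.7.3.1, which subtracted background and detrended each array. The authors' series table holds the same intensity values rounded. Control and outlier spots were left out, spots of a probe averaged, and log2 intensities scaled to a common 75th percentile over the 12874 probes detected on all arrays. The lowest detected signal of an array (9.99 to 19.3) was its floor for bounds. All arrays lay on 1 slide with 1 scan date.

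Gene names came from the files, updated through a RefSeq table. The brightest of several probes (7 members) stood for a gene; 7 members carry an older symbol. Probes named Gem were not taken for Gmnn, which lists that name as a synonym. Positions of probes in transcripts are those of the files. Pairwise calls needed 2-fold. The additive fit used limma 3.58.1 (R 4.3.3), two-sided, with Benjamini-Hochberg adjustment over all genes, a threshold of 0.05 and low signals raised to the highest floor, and was tested on simulated data. Its residual holds the change of the genotype difference between the sources, with the error moderated over genes, so its p-values do not measure spread between replicates. The labels do not say whether arrays share animals. Alternatives changed the background correction, scaling, probe choice, filter, source of values and probe position trend. Members called in any comparison are given with their levels on the arrays where they were well above background. Of other lists, at most 3 genes per direction are named. The members and lists were chosen with earlier results of these data known. A list's median was followed relative to that of all genes, and differences relative to that median were added after seeing the data.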

Additional observations from a re-analysis of the deposited data

Results flagged for a closer look

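Mcm10 and Orc6 were at least 2-fold apart between the genotypes in both sources, in opposite directions. Mcm10 was 1.16 higher with Ezh2-null on the log2 scale in fetal liver, and the same difference was −1.18 in bone marrow. Orc6 differed by 1.70 in fetal liver and by −1.09 in bone marrow. With 1 array per group the difference between the sources was not tested.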

How the results depend on the processing

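With 1 array per group the number of arrays limits every value, and no array could be left out. Of 55 calls, 20 kept 2-fold under every alternative that gave a value and 21 lost it with normexp. With normexp, members called numbered 8 in place of 17 for genotype in fetal liver and 0 in place of 4 in bone marrow (2 with quantile normalization). For source, wild-type calls went from 15 to 32 with spike-in scaling and 24 relative to the median of all genes, an alternative chosen after seeing the data. Null calls went from 19 to 33 with spike-in scaling, 31 with the percentile over all probes and 31 relative to that median. The members' median above that of all genes, 0.08 in fetal liver by genotype, was 0.26 with normexp, 0.38 with quantile normalization and 0.39 without a background filter. For source it was 1.14 in wild type, and 0.79 with normexp, 0.92 with probes averaged and 0.88 with the position trend removed; in null it was 1.13, and 0.87 with normexp and 0.73 with quantile normalization. The limma fit called 0 members for source, but 4 without a background filter, 7 with normexp, 5 with the percentile over all probes and 2 among genes detected on all arrays. Rfc3 turned from −1.07 to 0.25 between the sources in wild type with spike-in scaling. The cause of these changes was not tested. Under the other settings the total of members called stayed within 1.5 times, but its split moved. For source it was 6 higher and 5 lower in wild type with normexp (4.64% and 33.9% of all genes) and 6 and 5 with the position trend removed (10.3% and 37.8%). In null it was 6 and 10 with that trend removed (9.27% and 30.0%) and 10 and 4 among genes detected on all arrays (10.9% and 21.9%). The members' median above that of all genes lay otherwise between 0.05 and 0.16 for genotype in fetal liver, 0.03 and 0.18 in bone marrow, 1.01 and 1.23 for source in wild type, and 1.01 and 1.15 in null. A slide block was not applicable, with 1 slide. The limma fit compares the genotypes within each source, and the labels give no replicate numbers for a further block.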
